A study of Mus musculus with 3 samples.

Results

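Mature oligodendrocytes are the cells that wrap axons in myelin, and 6107 of them were found among 52083 cell barcodes from the mouse medial prefrontal cortex (mPFC). They were chosen by 4 transcripts of the mature stage: Mog, Ermn, Mag and Cldn11 together had to reach 15 unique molecular identifiers (UMIs) per 10000 of the cell, with at least 3 of the 4 genes detected. Barcodes with fewer than 500 detected genes or more than 15% mitochondrial UMIs were left out before that, which kept 44180. Screens then removed barcodes with 5 or more UMIs per 10000 of Gpr17, Bmp4, Enpp6 and Neu4 (genes of committed precursors), with more than 1 UMI of Pdgfra (precursor cells) or of Slc17a7 (glutamatergic neurons), or with more than 5 UMIs per 10000 of C1qa, Cldn5 and Gja1 (microglia, endothelium and astrocytes). These values chose the cells and are given only as a description.

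The study asked about reproductive state and social behaviour in mice. It made 3 droplet libraries of whole transcriptomes, 1 each for estrous females, diestrous females and males. Each library came from 2 mice whose tissue was dissociated with papain, cleaned over Percoll and loaded without a sort that the protocol mentions, although the labels call the cells mPFC neurons. The labels and protocols state no strain, age or hormone level, and all animals were otherwise untreated as far as the labels say. With 1 pooled library per group, no spread between mice can be measured, so no difference below has a replicate check and no p-value is given.

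Oligodendrocytes arise from precursor cells that pass through a committed stage, lose their precursor genes and then make large amounts of a few proteins, among them myelin basic protein (Mbp), together with cholesterol and galactolipids for the myelin membrane. In the adult cortex they supply axons with lactate and buffer potassium and iron. They also carry the glucocorticoid receptor, through which the adrenal hormone corticosterone switches on genes such as Sgk1 and Fkbp5.

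The estrus library held 1576 mature oligodendrocytes, 12.1% of its 12981 retained barcodes (95% Clopper-Pearson interval 11.6 to 12.7%). The diestrus library held 1648, 11.1% of 14855 (10.6 to 11.6%), and the male library 2883, 17.6% of 16344 (17.1 to 18.2%). The male share was thus the highest and its interval did not touch the others, but these intervals, like all others here, cover counting error only. With stricter screens (no UMI of Pdgfra, Slc17a7, C1qa, Cldn5 or Gja1) the shares were 7.80% in estrus, 6.56% in diestrus and 10.8% in males. The cells had a median of 8481 UMIs in estrus, 8549.5 in diestrus and 6275 in males, more than the 6337, 4806 and 4023.5 of all retained barcodes. The median of the 4 chosen genes together was 63.2, 60.03 and 58.3 UMIs per 10000, and few cells lay near the threshold: 5, 17 and 25 cells had 15 to 20, and 2, 9 and 9 barcodes that met every other condition had 10 to 15. The screen against committed precursors alone removed 92, 146 and 307 barcodes, of which 75, 126 and 283 carried no gene of that screen other than Enpp6. Between libraries, 2 cell barcodes were shared by estrus and diestrus, 0 by estrus and males and 2 by diestrus and males.

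The label was checked on genes that the selection did not use. Levels are given as CPM, the UMIs of a gene per 1000000 UMIs on nuclear genes, summed over the cells of a library. Opalin, a membrane protein of late oligodendrocytes, was at 1538 CPM in estrus, against 1516.5 in diestrus and 1758 in males. In precursor cells (83, 129 and 120 cells) it stood at 4.52, 11.9 and 18.4 CPM, and in committed precursors (51, 75 and 62 cells) at 94.3, 220 and 278 CPM. Mobp, a protein of compact myelin, stood at 3012, 2192 and 1986 CPM. The 20 genes highest over all other retained barcodes included Opalin, C030029H02Rik, Mal, Tspan2, Tnni1, Il33, Abca8a, Gm42756, Cldn11, Pdlim2, Mog, Aspa, Galnt6, Hhip, Nkx6-2, Gpr37, Tmem88b, Mobp and Ankub1. Cldn11 and Mog had served the selection, and the list is a description of the chosen cells. The label was kept.

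**Figure D1:**
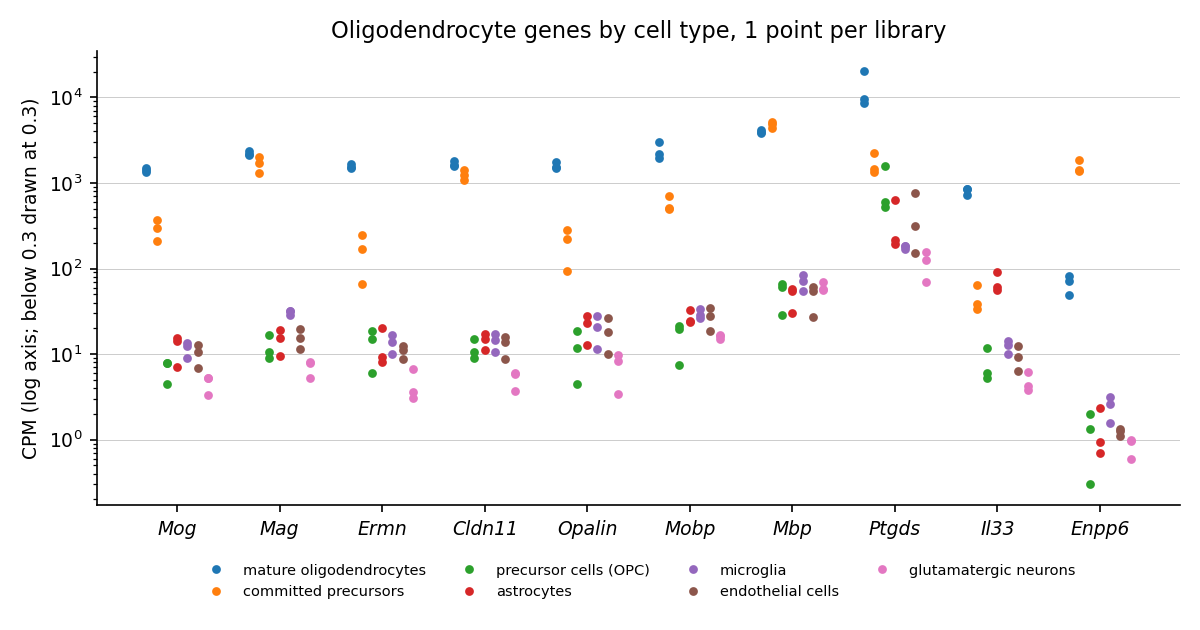
Level of oligodendrocyte genes (horizontal axis) in CPM on a log axis, each point 1 library and each colour 1 cell type, with values below 0.3 drawn at 0.3. Opalin, Mobp and the 4 selecting genes are high in the mature oligodendrocytes of all 3 libraries, while Opalin stands at 4.52 to 18.4 CPM in precursor cells. Precursor cells were chosen with an upper limit on the 4 selecting genes.

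RNA of other cell types was present at low levels and was not even across libraries. The 10 neuron markers were all detected in every library and summed to 288 CPM in estrus, 734 in diestrus and 1022 in males, with a median per cell of 1.98, 5.95 and 8.35 UMIs per 10000. The 8 microglia markers summed to 121, 95.2 and 104 CPM, the 7 endothelial markers to 105, 81.1 and 83.4 CPM, the 8 astrocyte markers to 334, 352 and 365 CPM and the 6 precursor markers to 26.9, 36.8 and 34.9 CPM. The 4 haemoglobin genes of red blood cells summed to 8315, 6068 and 4344 CPM, with a median per cell of 1.78, 1.44 and 2.43 UMIs per 10000, and Hbb-bs alone was found in 65.6%, 59.2% and 64.9% of cells. The 5 pericyte markers summed to 97.7, 58.5 and 69.1 CPM. Neuron RNA was therefore lowest in estrus. The sums of haemoglobin and pericyte RNA were highest there, but the median of haemoglobin per cell was highest in males.

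The estrus cells stood apart from those of both other libraries. A gene counted as measured in a pair of libraries when its cells held at least 100 UMIs of it and its mean level was at least 20 CPM, and as 2-fold apart when the log2 ratio, with 1 CPM added to each level, was at least 1 in size. Between estrus and diestrus, 50 of 6529 measured genes were 2-fold higher in estrus (0.766%) and 65 were 2-fold lower (0.996%). Between estrus and males, 70 of 6577 were higher (1.06%) and 120 lower (1.82%). Between diestrus and males, 5 of 6663 were higher in diestrus (0.075%) and 5 lower (0.075%). Estrus enters both of the larger comparisons, so they are not independent of each other.

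The higher and the lower genes differed in where else they were found. Of the 50 higher in estrus than in diestrus, 48 had a level in the oligodendrocytes at least 0.5 times that of all other barcodes. Of the 65 lower genes only 22 did, and the other 43 were below that level. Against males the numbers were 62 of 70 and 32 of 120. All 5 measured neuron markers were also 2-fold lower in estrus than in diestrus (median log2 ratio -1.42). The part of neuron RNA in the ratios was not tested. Among cells with at most 5 UMIs per 10000 of neuron markers, a restriction chosen after seeing the data that also changes which cells are used, 59 genes were higher and 41 lower against diestrus, and 79 and 68 against males. The scale itself also mattered: edgeR's TMM factors raised every log2 ratio by 0.12 against diestrus and by 0.17 against males, and gave 72 higher and 47 lower genes against diestrus and 104 and 86 against males. Changes of that size in a list median are not read as a difference below.

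Gene length moved with the ratios as well. The shortest 10% of the measured genes (median 3.204 kb) had a median log2 ratio of 0.16 between estrus and diestrus, and the longest 10% (median 278 kb) one of -0.34, with 25 of the 65 lower genes among those longest genes. Between diestrus and males the order was the opposite, from -0.15 to 0.10. The part of this trend in single ratios was not tested, so for several of the named genes values net of the median of genes of like length are given as well.

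Genes known to respond to glucocorticoids, a list of 16, held 4 of the 8 highest ratios of estrus over diestrus. These 8 were taken from genes at least 0.5 times as high in the oligodendrocytes as in other barcodes. Sgk1, a kinase that regulates ion channels and transporters, had the most UMIs of the list (mm10, chr10:21882184-21999903) and had 2135 CPM in the estrus cells, 304 in the diestrus cells and 209 in the male cells. Only the estrus library was high. Its log2 ratio was 2.81 against diestrus (95% interval of the UMI ratio, exact conditional binomial, 2.77 to 2.85) and 3.35 against males (3.31 to 3.398). Fkbp5, a co-chaperone that dampens the glucocorticoid receptor (chr17:28399094-28517527), stood at 101, 12.4 and 9.28 CPM, with log2 ratios of 2.93 and 3.31. Microglia held more of Fkbp5 (823, 195 and 140 CPM), and the part of their RNA in these values was not tested. Zbtb16, a transcription factor with zinc fingers (chr9:48654297-48836222), stood at 236, 45.6 and 21.5 CPM. It was the one gene of the list that was also 2-fold apart between diestrus and males (log2 ratio 1.05, or 0.95 net of genes of like length).

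The promoters of 3 of these genes are shown because they span what the list holds: Sgk1, with the largest level in estrus, has matches to the known binding sequence of the glucocorticoid receptor, Mt1 has a match and similar levels in all libraries, and Fkbp5 differed as much as Sgk1 and has none. Each runs 5′ to 3′ on the gene's strand, from 250 bases before to 50 after a RefSeq transcript start in GRCm38.p6, and capitals mark matches to a palindromic motif (GNACA and, 3 bases on, TGTNC, so that both strands read alike) and to the 6-base element AGAACA, which reads TGTTCT on the other strand.
Sgk1 promoter, chr10:21993640-21993939, + strand: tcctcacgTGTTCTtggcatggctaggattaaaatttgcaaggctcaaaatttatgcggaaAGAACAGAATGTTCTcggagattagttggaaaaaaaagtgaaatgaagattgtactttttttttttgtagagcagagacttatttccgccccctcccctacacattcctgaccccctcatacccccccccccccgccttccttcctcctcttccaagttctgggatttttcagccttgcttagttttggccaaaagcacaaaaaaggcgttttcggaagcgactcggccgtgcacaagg
Mt1 promoter, chr8:94178839-94179138, + strand: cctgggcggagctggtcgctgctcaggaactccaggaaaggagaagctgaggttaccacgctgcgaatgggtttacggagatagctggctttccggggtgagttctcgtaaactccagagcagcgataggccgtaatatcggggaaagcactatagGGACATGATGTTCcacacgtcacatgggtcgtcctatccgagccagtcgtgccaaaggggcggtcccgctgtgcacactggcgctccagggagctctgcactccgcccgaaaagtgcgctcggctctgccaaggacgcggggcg
Fkbp5 promoter, chr17:28486100-28486399, − strand: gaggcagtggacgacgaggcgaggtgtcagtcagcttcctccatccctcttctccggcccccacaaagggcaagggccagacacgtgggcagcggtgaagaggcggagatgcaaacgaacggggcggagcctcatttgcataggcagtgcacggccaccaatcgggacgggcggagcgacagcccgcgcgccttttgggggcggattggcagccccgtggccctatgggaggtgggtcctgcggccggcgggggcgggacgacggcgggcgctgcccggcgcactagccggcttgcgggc
In the Sgk1 sequence the longer motif lies inside the run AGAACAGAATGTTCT and overlaps the short element on each strand, and TGTTCT is found again further upstream. Of the 6 Sgk1 windows in the table it is the only one with the longer motif, and 3 hold no match to either. The RefSeq table held 25 promoters for 15 of the 16 list genes, Zbtb16 not among them. The longer motif was in 3 of the 25 (Sgk1, Mt1 and Map3k6) and in 156 of all 32851 promoters (0.475%), and the short element in 5 of the 25 and in 6233 of all (19%). A match describes letters in a window and is not evidence of binding.

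Below Sgk1, Fkbp5 and Zbtb16, most of the list took the same order of libraries. Nfkbia, the inhibitor of NF-kappaB (chr12:55489410-55492647), was at 256 CPM in estrus, against 53.9 in diestrus and 57.6 in males, log2 ratios 2.23 and 2.13. Cdkn1a, the cell cycle inhibitor p21 (chr17:29090976-29100727), stood at 57.9, 6.16 and 6.70 CPM, log2 ratios 3.04 and 2.94. Arrdc2, an arrestin-domain protein (chr8:70835129-70839720), stood at 103, 23.01 and 19.7 CPM. Diestrus and males lay close together for these 3 genes, between -0.10 and 0.21 on the log2 scale. Endothelial cells held more of Cdkn1a (930, 232 and 168 CPM) and of Nfkbia (1246, 618 and 546 CPM), and the part of their RNA in the oligodendrocyte values was not tested.

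Arl4d, a small GTPase, stood at 105, 26.2 and 28.2 CPM, and Errfi1, a feedback inhibitor of the EGF receptor, at 126, 55.5 and 56.2 CPM. The clock gene Per1 stood at 39.3, 18.02 and 18.2 CPM, log2 ratio 1.09 against diestrus, or 0.97 net of genes of like length. Tsc22d3, which codes for the glucocorticoid-induced leucine zipper, stood at 176, 138 and 103 CPM, under 2-fold in both comparisons (0.34 and 0.77). The metallothionein genes, which bind zinc and copper, had similar levels: Mt1 at 541, 511 and 544 CPM and Mt2 at 22.95, 21.4 and 25.4 CPM. Of the low genes that missed the filter, the lipid droplet gene Plin4 stood at 32.9, 4.11 and 5.57 CPM and the pyruvate dehydrogenase kinase gene Pdk4 at 17.3, 4.11 and 3.89 CPM. Sult1a1 (1.81, 0.763 and 0.498 CPM) and Map3k6 (1.19, 0.646 and 0.634 CPM) were near the limit of detection.

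Over the list, 12 of 16 genes were measured between estrus and diestrus, and 9 of the 12 were 2-fold higher in estrus, against 0.766% of all measured genes. The list was chosen with earlier results of these data known, so this count is a description and no independent support. The median log2 ratio of the 12 was 2.04, against -0.05 over all measured genes. Against males 9 of 12 were 2-fold higher as well (median 1.996, all genes -0.08), and between diestrus and males 1 of 9 was (median -0.02, all genes -0.04). Fkbp5, Cdkn1a and Per1 were under 20 CPM in diestrus and passed the filter only through their estrus level, and without them 6 of 9 genes were 2-fold higher. Against males the same held for these 3 genes and Arrdc2, and without them the count was 5 of 8. Of the measured list genes, 12 of 12 had a ratio above 0 against diestrus and 10 of 12 against males. Over all measured genes 42.9% and 36.8% did. Mt1 and Mt2 are in this count with log2 ratios of 0.08 and 0.10 against diestrus, too small to be read as a difference. The list held the same range when cells with little neuron RNA, cells of 5000 to 10000 UMIs or cells without haemoglobin UMIs were taken alone, with medians of 2.04 to 2.21 against diestrus. The receptors for these hormones did not share the pattern: Nr3c1, the glucocorticoid receptor, stood at 215, 251 and 278 CPM and Nr3c2, the mineralocorticoid receptor, at 44.7, 64.2 and 56.8 CPM, both lowest in estrus and under 2-fold apart.

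**Figure D2:**
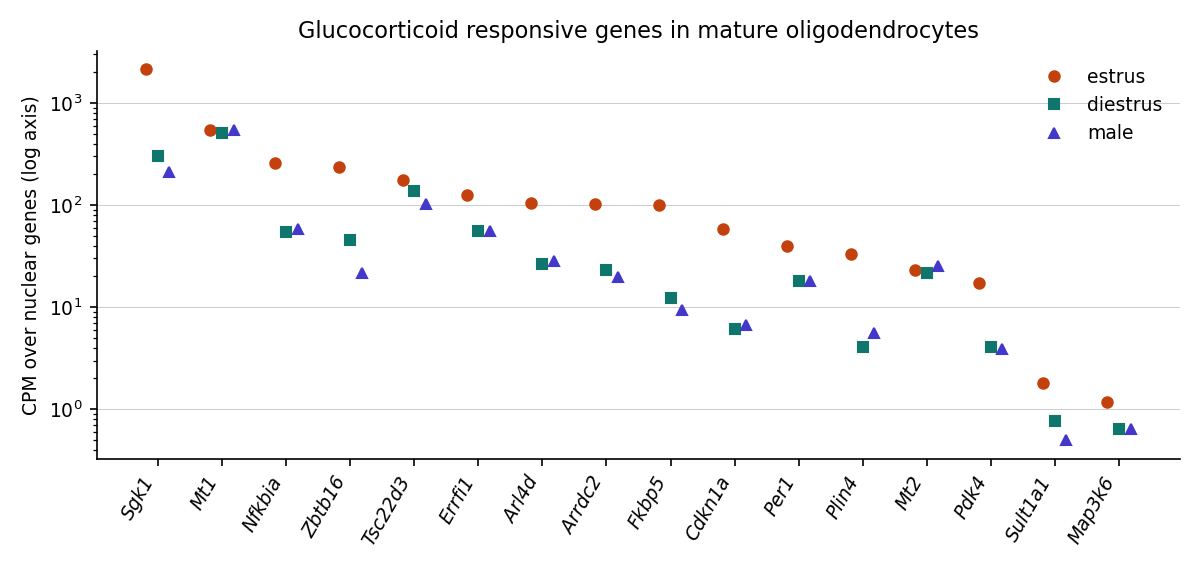
Levels of the glucocorticoid responsive genes in the mature oligodendrocytes of each library, in CPM on a log axis, each point 1 library. Sgk1 stands at 2135 CPM in estrus against 304 in diestrus and 209 in males, while the 3 points of Mt1 (511 to 544 CPM) and of Mt2 (21.4 to 25.4 CPM) lie side by side.

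The difference in Sgk1 ran through nearly the whole population of cells. After every cell was thinned to 2000 UMIs (1558, 1594 and 2743 cells), 95.8% of estrus cells had at least 1 Sgk1 UMI, against 42.7% of diestrus and 32.3% of male cells. No cell type here is known to lack Sgk1. In microglia, thinned in the same way, the shares were 48.8%, 37.1% and 40.3%, so the diestrus and male oligodendrocytes were not set apart from another cell type by this measure. At least 4 Sgk1 UMIs were found in 59.6% of estrus cells, 1.88% of diestrus cells and 0.693% of male cells. The median was 4 UMIs in estrus and 0 in the other libraries, and the most in any cell was 15, 9 and 6. Fkbp5 was found in 18.1%, 1.94% and 1.53% of thinned cells, against 74.5%, 29.0% and 21.8% of microglia. Cdkn1a was found in 8.99%, 0.627% and 1.13%, against 2.67%, 2.84% and 2.68% of microglia.

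**Figure D3:**
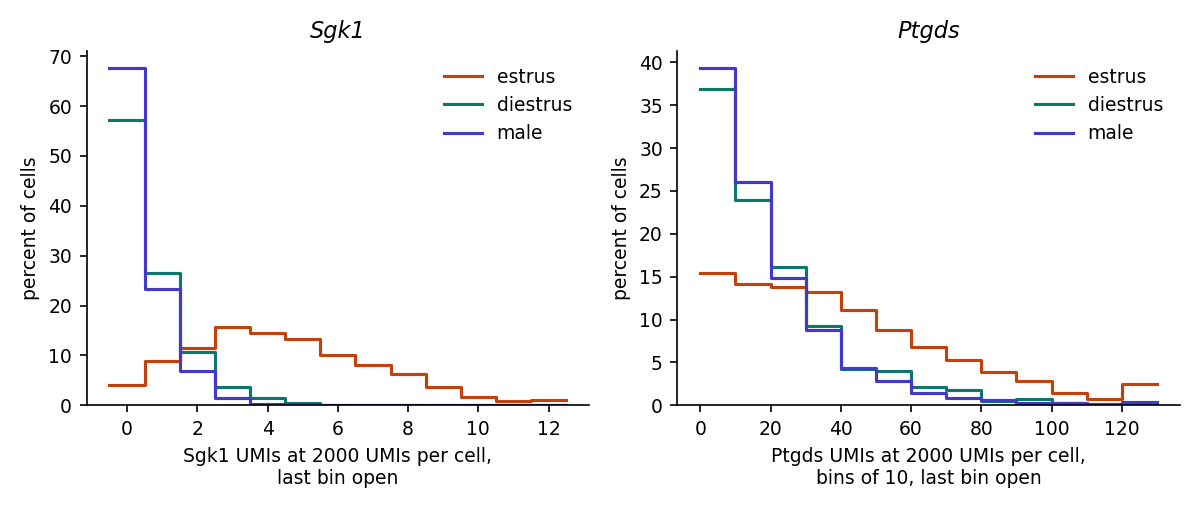
Share of mature oligodendrocytes (vertical axis, percent) by the number of Sgk1 or Ptgds UMIs among 2000 UMIs per cell (horizontal axis, bins of 10 for Ptgds), 1 line per library. The estrus line for Sgk1 has its median at 4 UMIs and the other libraries have theirs at 0, and for Ptgds the medians are 35 in estrus, 14 in diestrus and 13 in males.

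Other cell types of the same libraries shared part of this pattern. In astrocytes 6 of 10 measured list genes were 2-fold higher in estrus than in diestrus (median 1.60, 1.05% of all measured genes), and in endothelial cells 8 of 12 were (median 1.23, 1.48%). In microglia 3 of 9 were (median 0.69, 0.628%), in precursor cells 2 of 4 (median 1.04, 1.25%) and in glutamatergic neurons 0 of 8 (median 0.24, 0.353%). Fkbp5 passed the filter only through its estrus level in astrocytes (107 CPM, 7.67 in diestrus) and in endothelial cells (98.85 CPM, 11.7 in diestrus). Counts without such genes were not made for these types. Fkbp5 had log2 ratios of 1.90 in precursor cells, 3.64 in astrocytes, 2.07 in microglia, 2.97 in endothelial cells and 0.63 in glutamatergic neurons, so its difference was found in most types. Sgk1 did not follow it, with 0.19, 1.02, 0.55, 0.24 and -0.46 in the same order against 2.81 in the oligodendrocytes. Tsc22d3 was the reverse case, with 1.63 in astrocytes, 1.58 in microglia and 1.38 in endothelial cells against 0.34 in oligodendrocytes. Mt1 was lower in estrus than in diestrus in all these types, with -0.76 in precursor cells, -0.56 in astrocytes and -0.96 in microglia. Its ratio was -0.25 in endothelial cells and -0.82 in glutamatergic neurons, against 0.08 in oligodendrocytes. Mt2 had -0.36 in astrocytes and 0.22 in endothelial cells, and missed the filter in the remaining types. These differences between cell types have no replicate and were not tested, and committed precursors were not compared. The list itself was chosen with earlier results of these data known.

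Genes outside the list also stood high in estrus. Zfand4, a gene for a zinc finger protein with a ubiquitin-like domain (chr6:116264222-116330302), had 69.0 CPM in the estrus cells, 8.39 in the diestrus cells and 9.37 in the male cells, log2 ratios 2.90 and 2.75. Zfand4 was under 20 CPM in diestrus and males and passed the filter only through its estrus level. In the other cell types its ratio against diestrus was below 0: -0.71 in precursor cells, -0.82 in astrocytes, -0.13 in microglia, -0.82 in endothelial cells and -0.57 in glutamatergic neurons. Precursor cells, microglia and endothelial cells held under 100 UMIs of it. Against males its ratio was 0.31 in precursor cells and below 0 in the other types. Polr3e, a subunit of RNA polymerase III (chr7:120917744-120947432), stood at 442, 114 and 93.7 CPM, log2 ratios 1.94 and 2.23. Its ratios in the other types lay between 0.07 and 0.72, so it too was further apart in oligodendrocytes than in any of the 5 types set beside them. Committed precursors were not among these 5 types.

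A further set was high in estrus across cell types. Cmss1 (chr16:57302000-57606864) stood at 3780, 457 and 808 CPM in oligodendrocytes, a log2 ratio of 3.05 against diestrus, with 2.13 to 2.99 in the 5 other types. Gm42418 stood at 17220, 3786 and 6040 CPM, Camk1d at 871, 176 and 333 CPM (log2 ratio 2.30, but 0.77 in microglia and 0.98 in glutamatergic neurons) and Gm19951 at 145, 21.5 and 37.9 CPM. Gm42418 overlaps a ribosomal RNA locus, so its reads cannot be assigned to it with certainty. All 4 had a ratio above 0 in each of the 5 other types.

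**Figure D4:**
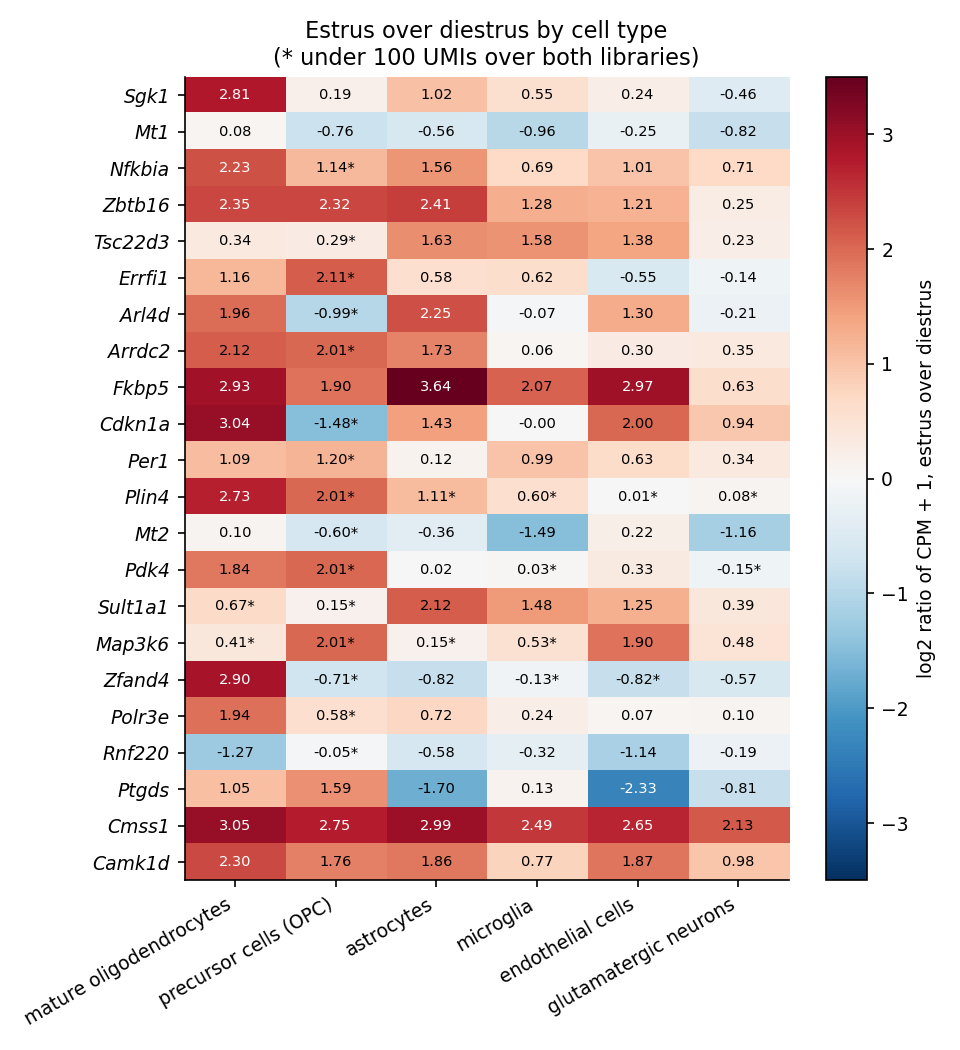
Log2 ratio of estrus over diestrus (colour) for named genes (rows) in mature oligodendrocytes and 5 other cell types (columns), with 1 CPM added and a star where both libraries together hold under 100 UMIs. Sgk1, Zfand4 and Polr3e are highest in oligodendrocytes (2.81, 2.90 and 1.94), Fkbp5 is high in most types, and Cmss1 in all.

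Over the whole set of 48 genes higher in estrus than in diestrus, 32 were also measured in astrocytes, of which 18 were 2-fold higher there and 5 had a ratio of the opposite sign. In endothelial cells 18 of 30 were 2-fold higher and 5 opposite, in precursor cells 13 of 24 and 0, in glutamatergic neurons 12 of 29 and 9, and in microglia 7 of 27 and 4. The share of all measured genes that were 2-fold higher was 1.05% in astrocytes, 1.48% in endothelial cells, 1.25% in precursor cells, 0.353% in glutamatergic neurons and 0.628% in microglia.

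The lowest ratios against diestrus belonged mostly to long genes and were smaller in size. Rnf220, a ubiquitin ligase gene of 226 kb (chr4:117271463-117497052), was at 453 CPM in estrus, against 1096 in diestrus and 922 in males, log2 ratios -1.27 and -1.03. Net of genes of like length these were -0.94 and -0.78. In glutamatergic neurons its ratio against diestrus was -0.19 and in endothelial cells -1.14. Adamts2, a procollagen protease, stood at 20.5, 56.6 and 52.8 CPM (-1.42 against diestrus, -1.08 net of length), and Grik1, a kainate receptor subunit, at 30.8, 77.2 and 66.9 CPM (-1.30 and -1.10, or -0.96 and -0.85 net of length). The flippase gene Atp8b1 stood at 45.8, 108 and 105 CPM and the RNA-binding protein gene Samd4 at 76.8, 181 and 156 CPM (-1.23 against diestrus and -1.01 against males, or -0.89 and -0.77 net of length). The unnamed genes Gm2000 (12.6, 44.4 and 44.5 CPM), Gm10863 (42.5, 101 and 73.4 CPM) and Gm4221 (29.7, 69.5 and 80.0 CPM) were also lowest in estrus. Against males the lowest ratios were those of Gm816, 9330111N05Rik, Gm2000, 5033421B08Rik, Gm26917, Zc3h6, Sned1 and Gm4221, and diestrus lay between the other libraries for all 8.

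Diestrus and males were close. The 5 genes 2-fold higher in diestrus were Xist, Gm47283, which the annotation puts on the Y chromosome although both female libraries hold it (86.1 CPM in diestrus and 34.2 in males), Zbtb16, and the smooth muscle genes Acta2 (59.9 and 19.6 CPM) and Tagln (35.5 and 11.8 CPM), which other barcodes hold at higher levels. The 5 lower genes were the Y-linked Ddx3y, Eif2s3y and Uty together with Dpp10 (27.2 and 115 CPM) and Asic2 (12.5 and 29.4 CPM), of which the last pair was higher in other barcodes. With Xist and Y-linked genes and genes of other cells left out, the highest ratios after Zbtb16 stayed under 2-fold: the co-chaperone gene Ahsa2 stood at 39.1 CPM in diestrus and 23.9 in males, Fam214a at 148 and 95.3 CPM, the mannosidase gene Man1a at 234 and 155 CPM and the stress response factor gene Xbp1 at 44.2 and 29.1 CPM. Kdm5c, Cpq and Dpyd followed, Kdm5c being an X-linked gene that escapes inactivation. On the same terms the lowest were Cdk8 (218 and 420 CPM), Camk1d, Gm816, Gm36855, Cmss1, Gm19951, the mitochondrial leucyl-tRNA synthetase gene Lars2 (146 and 248 CPM) and 9330111N05Rik. Cdk8 and Lars2 were highest in estrus (451 and 377 CPM), the order of libraries that Cmss1, Camk1d and Gm19951 also took.

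None of the 20 genes of compact myelin and its cytoskeleton was 2-fold apart in any comparison. Since at most 1.82% of all measured genes were so in one direction, this count does not set the list apart. The median log2 ratio of the list was 0.11 between estrus and diestrus, 0.13 between estrus and males and 0.05 between diestrus and males. Mbp stood at 4202, 3992 and 3833 CPM and Mal, a membrane protein of myelin traffic, at 7364, 6525 and 6793 CPM. Cryab, a small heat shock protein, had the highest ratio of the list against diestrus (4274, 2998 and 4050 CPM, 0.51) and Tmem88b the lowest (-0.13). Mobp was highest against males (0.60). These ratios lie within a narrow band, but without replicates no bound on a difference between the groups can be set.

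Of the genes of the paranode, gap junctions and adhesion 14 of 15 were measured, none 2-fold apart, with medians of 0.01, 0.05 and 0.06. At most 1.82% of all measured genes were 2-fold apart in one direction. A count of none in this or a later list therefore does not set that list apart. Hapln2, a link protein of the node matrix, stood at 181, 96.5 and 119 CPM and had the highest ratio, 0.90. Tmeff2, a membrane protein with follistatin domains and a long gene, stood at 2658, 4273 and 3177 CPM, the lowest at -0.68, or -0.35 net of genes of like length. The transcription factors of the lineage (12 of 15 measured, none 2-fold apart) had medians of -0.05, 0.00 and 0.04. Among them Olig1 stood at 641, 457 and 542 CPM, Sox10 at 228, 326 and 340 CPM and Myrf, the activator of myelin genes, at 198, 207 and 201 CPM. St18, which took the most UMIs of the list, stood at 1852, 2521 and 2105 CPM, and Nkx2-2 had the lowest ratio (-0.70).

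For cholesterol synthesis 16 to 18 of 22 genes were measured, none 2-fold apart, with medians of -0.09, -0.20 and -0.09. Hmgcs1, an early enzyme of the pathway, stood at 183, 249 and 234 CPM and had the lowest ratio against diestrus, while Pmvk stood at 69.2, 53.9 and 56.6 CPM and had the highest. Against males 14 of the 17 measured genes had a ratio below 0 in estrus, where 36.8% of all measured genes were above 0, and with TMM factors the median was -0.04. The pathway's regulator Srebf2 was lowest (75.5, 99.1 and 106 CPM, -0.49). Of the enzymes for other myelin lipids 19 of 20 were measured, none 2-fold apart, with medians of -0.05, 0.01 and 0.03. Ugt8a, which makes galactosylceramide, stood at 855, 1222 and 1213 CPM, Scd2, a desaturase, at 2079, 2158 and 2067 CPM and Elovl7, an elongase with the lowest ratio, at 212, 306 and 340 CPM.

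In iron handling 4 of 8 genes were measured and none was 2-fold apart. Their medians were 0.28, 0.07 and -0.24 in the same order of comparisons, beside -0.05, -0.08 and -0.04 over all measured genes. Between estrus and diestrus 4 of 4 were above 0, beside 42.9% of all measured genes. Between diestrus and males 0 of 4 were, beside 40.1%. A count over 4 genes is a description only. The ferritin heavy chain Fth1 stood at 18647, 14751 and 17757 CPM, the light chain Ftl1 at 979, 712 and 830 CPM and transferrin, Trf, at 3100, 2647 and 2957 CPM, each lowest in diestrus. In glycolysis and lactate export 10 of 14 were measured, none 2-fold apart, with medians of 0.01, -0.07 and -0.10. The lactate transporter Slc16a1 stood at 67.5, 67.5 and 65.7 CPM, the glucose transporter Slc2a1 at 80.7, 57.1 and 59.7 CPM, the highest ratio of the list, and Gapdh at 625, 637 and 733 CPM.

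Of 15 ion channel and transporter genes 11 were measured. The potassium channel gene Kcnj10 stood at 172, 179 and 162 CPM, the chloride cotransporter gene Slc12a2 at 910.5, 800 and 763 CPM and the pacemaker channel gene Hcn2 at 91.6, 62.6 and 50.8 CPM, the highest ratio. Atp1b1, a sodium pump subunit that neurons also make, was the one gene 2-fold lower in estrus than in males, against 1.82% of all measured genes. It stood at 46.2, 91.8 and 129 CPM, in the order of the neuron markers. The part of neuron RNA in this value was not tested. Receptors for transmitters and lipid mediators (9 of 14 measured) and receptors for growth factors (8 of 14 against diestrus and males alike) had none 2-fold apart. Grm3, a glutamate receptor, stood at 873, 948 and 848 CPM, Erbb4, a neuregulin receptor, at 1224, 1566 and 1233 CPM and Gabbr1, a GABA-B subunit with the highest ratio of its list, at 170, 146 and 141 CPM.

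**Figure D5:**
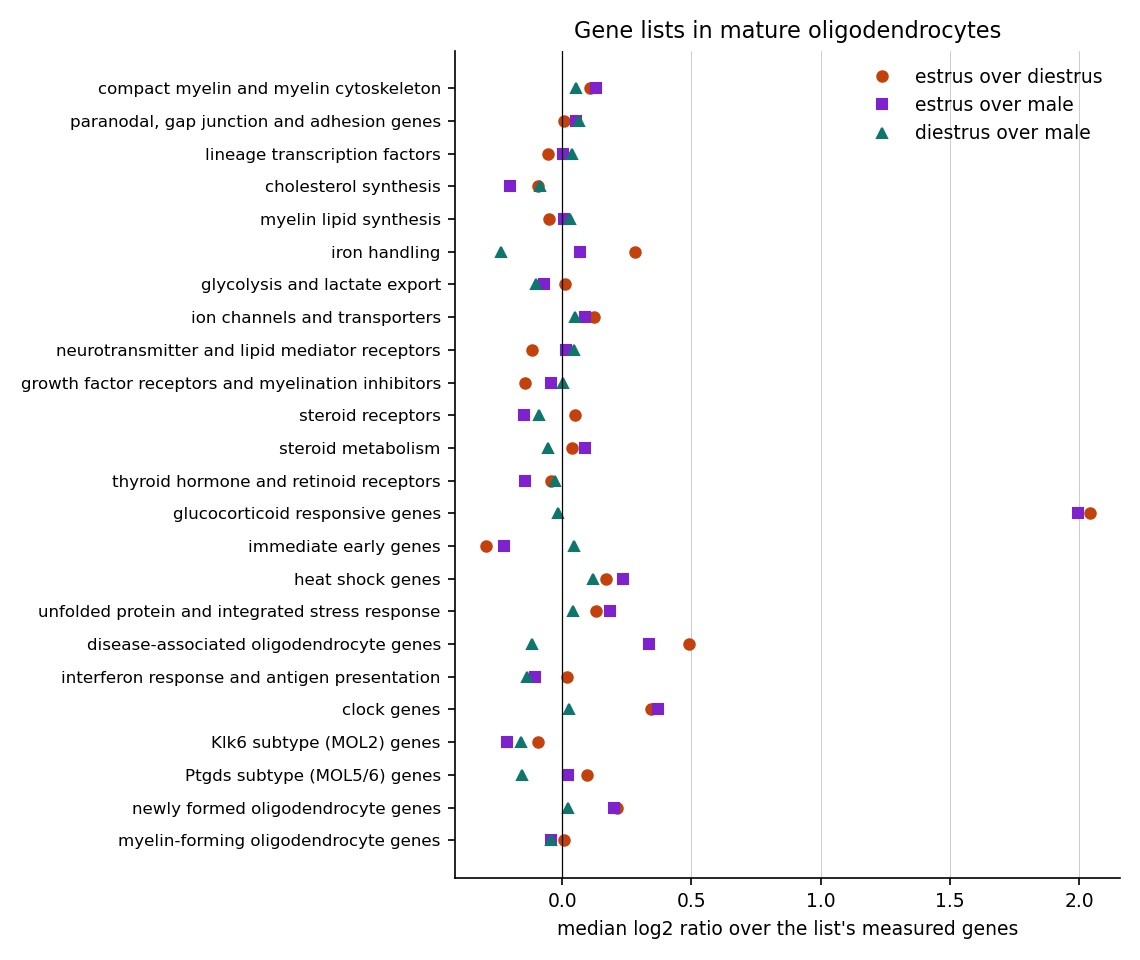
Median log2 ratio of each gene list (points) in the 3 pairs of libraries, with a line at 0. The glucocorticoid responsive list lies at 2.04 and 1.996 in the comparisons of estrus and at -0.02 between diestrus and males, and the myelin and lipid lists lie between -0.20 and 0.13.

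Nuclear receptors for the ovarian hormones were at the limit of detection in these cells. Esr1, estrogen receptor alpha, was at 0.349 CPM in estrus, against 0.587 in diestrus and 0.407 in males, and Pgr, the progesterone receptor, at 0.837, 1.06 and 2.08 CPM. Esr2 had 0 UMIs in all 3 libraries, which allows up to 0.209, 0.176 and 0.136 CPM (3 counts of each total). Of 14 steroid receptor genes 6 were measured and none was 2-fold apart, and the membrane progesterone receptor gene Paqr8 had the highest ratio (63.1, 50.6 and 39.2 CPM). Of 16 genes of steroid metabolism 3 were measured against diestrus, among them Srd5a1, which makes neurosteroids (57.8, 56.5 and 58.7 CPM). Of the thyroid hormone and retinoid genes (4 of 11 measured) Klf9, which both thyroid hormone and glucocorticoids are known to induce, stood at 332, 171 and 172 CPM, just under 2-fold (0.95 and 0.94). The receptor Thra stood at 410, 440 and 492 CPM and the other thyroid receptor, Thrb, had the lowest ratio (13.3, 26.9 and 27.3 CPM).

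Stress and activity genes did not move as one. Of 22 immediate early genes 9 were measured, with a median of -0.30 against diestrus. Egr1 was 2-fold lower in estrus than in diestrus (16.3, 37.0 and 27.4 CPM), as were 0.996% of all measured genes. The other barcodes of the estrus library held 404 CPM of it. Nr4a1 was 2-fold higher in estrus than in males (40.0, 21.5 and 19.3 CPM), as were 1.06% of all measured genes. Fos stood at 18.6, 26.2 and 26.7 CPM and Jund at 523, 397 and 518 CPM. Dissociation is known to induce such genes, and its part was not tested.

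Of 14 heat shock genes 9 were measured, none 2-fold apart, with medians of 0.17, 0.24 and 0.12. Dnajb1 had the highest ratio (47.0, 29.5 and 23.2 CPM) and Hsp90ab1 stood at 2117, 1769 and 2149 CPM. In the unfolded protein response Herpud1 was 2-fold higher in estrus than in males (61.0, 31.9 and 29.8 CPM). It was the one of 7 measured genes, against 1.06% of all measured genes. Among clock genes Per1 was the one of 7 that was 2-fold higher in estrus, against 0.766% of all measured genes over diestrus and 1.06% over males. Interferon and antigen genes were scarcely measured, with 3 of 19 against diestrus and none 2-fold apart.

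Of the 12 genes known from oligodendrocytes in disease models 8 were measured, and 3 were 2-fold higher in estrus in both comparisons (against 0.766% and 1.06% of all measured genes): Sgk1 and Cdkn1a, which the glucocorticoid list also holds, and Apoe. Apoe, the lipid carrier (chr7:19696109-19699188), stood at 3209, 1429 and 1499 CPM, log2 ratios 1.17 and 1.10. The defining genes of that state were low in every library, with Serpina3n at 1.26, 1.35 and 1.95 CPM and C4b at 5.93, 6.69 and 9.24 CPM. After thinning, Serpina3n was found in 0.385%, 0.251% and 0.219% of cells.

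Ptgds, which makes prostaglandin D2 and marks a large adult subtype, was the subtype gene with the most UMIs (chr2:25466709-25470046). It had 20161 CPM in the estrus cells, 9719 in the diestrus cells and 8541 in the male cells. Its log2 ratio was 1.05 against diestrus, or 0.89 net of genes of like length, and 1.24 against males. In precursor cells it stood at 1576, 521 and 598 CPM and in committed precursors at 2240, 1444 and 1339 CPM, with estrus the highest library in both. In microglia it stood at 186, 170 and 182 CPM. Estrus was the lowest library in astrocytes (192, 626 and 213 CPM), endothelial cells (152, 770 and 317 CPM) and glutamatergic neurons (70.4, 124 and 156 CPM). Of the other genes of the subtype none was 2-fold apart. Car2 stood at 2949, 3024 and 3319 CPM, Il33 at 848.5, 724 and 839.5 CPM and Apod at 1975, 1643 and 1933 CPM, and S100b, the lowest ratio of the list, at 54.9, 68.0 and 77.1 CPM.

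Within each library Ptgds varied widely from cell to cell. Among 2000 UMIs the median was 35 in estrus, 14 in diestrus and 13 in males, with middle ranges of 16 to 57, 6 to 28 and 5 to 25. Across cells of a library, which share their library and are not replicates, its level, as the natural log of UMIs plus 1, went with Apoe (Pearson's r 0.44 in estrus, 0.45 in diestrus and 0.42 in males) and with Cd9 (0.35, 0.30 and 0.31), Qdpr (0.34, 0.32 and 0.30) and Opalin (0.30, 0.28 and 0.29). It went against Selenop (-0.42, -0.38 and -0.41), Anln (-0.39, -0.34 and -0.34), Apod (-0.23, -0.25 and -0.29) and Trf (-0.21, -0.21 and -0.25). The sign of each was thus the same in the 3 libraries. These values come from thinned counts of 3135 genes and depend on the level of each gene.

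The 25% of cells with the fewest and the 25% with the most Ptgds UMIs showed the same gradient in counts. In estrus Opalin averaged 1.91 UMIs in the cells low in Ptgds and 2.98 in those high in it. The same pair of means was 2.11 and 3.21 for diestrus, and 2.53 and 3.90 for males. In that order of libraries, Apod averaged 5.37 and 3.52, 4.71 and 2.76, and 5.74 and 3.35. Anln, an actin-binding protein of the myelin septin scaffold, averaged 1.35 and 0.30, 1.14 and 0.39, and 1.23 and 0.38. Mbp differed little (8.12 and 7.64, 7.37 and 7.04, 7.20 and 6.56). Sgk1 averaged 3.97 and 4.64, 0.59 and 0.71, and 0.38 and 0.50 UMIs, so the libraries lay further apart than the Ptgds classes.

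Apod, a lipocalin, and Trf formed the other end of this axis with ferritin. Across cells Apod went with Fth1 (0.46, 0.44 and 0.43) and with Trf (0.37, 0.38 and 0.37). A small set of cells with at least 2 UMIs of Klk6, Hopx and S100a10, genes known from a subtype that is common in spinal cord, lay at that end. There were 17 such cells in estrus (1.09%, interval 0.637 to 1.74%), 15 in diestrus (0.941%, 0.528 to 1.55%) and 40 in males (1.46%, 1.04 to 1.98%), and the intervals overlap. The estrus share was 0.402% with stricter screens, 0.483% without cells above 2 times the median UMI count and 0.526% with at most 10% mitochondrial UMIs. They averaged 11.8, 2.93 and 3.05 Ptgds UMIs against 41.7, 20.6 and 18.9 in cells with none of the 3 genes. Apod averaged 8.65, 6.67 and 8.68 in the set against 4.00, 3.44 and 4.00, Trf 10.2, 9.87 and 10.1 against 6.27, 5.26 and 5.88, and Opalin 0.824, 1.33 and 1.38 against 2.79, 2.85 and 3.42. Astrocytes held more Hopx (377, 330 and 354 CPM against 11.7, 17.7 and 24.3), but Klk6 at only 0 to 0.18 CPM. S100a10 was found in 3.64%, 5.06% and 6.84% of thinned microglia against 1.60%, 1.82% and 2.41% of oligodendrocytes. The part of RNA of other cells in this set was not tested.

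Il33, an alarmin that cortical oligodendrocytes are known to make, was found in 73.9%, 69.2% and 74.1% of thinned cells, against 2.14%, 2.26% and 2.54% of microglia. Enpp6, a gene of newly formed cells that also served as a screen, was left in 7.12%, 12.6% and 13.9% of cells. Its highest values had been removed by the selection.

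Among genes at least as high in oligodendrocytes as in other barcodes, the spread between cells beyond counting error was widest for Tmem141 (dispersion 3.11 in estrus, 3.93 in diestrus and 4.15 in males), followed by Gm48678, Synpr, Fam214a, Thsd7a, Hcn2, Kirrel3, Pcdh11x, Man1a, Wwox, Pmp22 and Kif6. Over all 3135 genes compared the median was 0.145, 0.152 and 0.145, and Mbp had 0.0531, 0.0549 and 0.0634. Over all genes the widest spread belonged to genes of other cells, among them the haemoglobin genes Hbb-bt, Hba-a2, Hbb-bs and Hba-a1 and then Slc1a2, Tenm2, Robo1, Luzp2, Pcdh7, Kctd16 and Cntn1.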

How the data were processed

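Each library was deposited by the authors as a matrix of raw, unscaled UMI counts (genes by barcodes). Reads were processed with Cell Ranger 3.0.2 on mm10 per the submitters' processing notes, while the file headers name version 7.0.0. The 32285 features were matched by Ensembl ID to GENCODE vM21 for coordinates and length (32235 matched). Libraries were made with 10x 3' chemistry (v3.1) and sequenced on an Illumina instrument per the labels' protocols.

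The deposited counts were summed over the mature oligodendrocytes of a library (14333147, 17039065 and 22089238 nuclear UMIs in estrus, diestrus and males) and divided by that sum. Intervals are exact (Poisson, conditional binomial, Clopper-Pearson, 95%) and cover counting error only. With 1 library per group no test was made. Cells were thinned at random to 2000 UMIs for shares and spread, which left out 18, 54 and 140 shallower cells. No doublet caller was run. The screens of the selection act against mixed barcodes, and an alternative left out cells above 2 times the median UMI count.

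The cells and gene lists were chosen with earlier results of these data known. Named genes are the 8 highest and 8 lowest ratios per pair among genes at least 0.5 times as high in oligodendrocytes as in other barcodes (in the library where the gene is higher), the highest, lowest and most abundant genes of a list, the 20 leading genes and the 12 genes of widest spread. Further list members and the dispersion among genes of the cells' own were named after their values were seen. A few genes that the rule names are not reported here. Alternatives changed the selection, scaling (edgeR 4.0.16 TMM, DESeq2 1.42.0 size factors), weighting, added CPM, filter, depth and length correction. Those on neuron RNA, UMIs per cell and haemoglobin were chosen after seeing the data. Ratios were tested on simulated data. Python 3.11.15, numpy 2.4.6, scipy 1.17.1, pandas 2.3.3, matplotlib 3.10.9 and R 4.3.3 were used.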

Additional observations from a re-analysis of the deposited data

Results flagged for a closer look

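Zfand4 had a log2 ratio of estrus over diestrus of 2.90 in mature oligodendrocytes and a ratio below 0 in each of the 5 other cell types compared. The difference between cell types was not tested, since each group is 1 library, and precursor cells, microglia and endothelial cells held under 100 UMIs of the gene.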

How the results depend on the processing

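No paired analysis was possible because each group is 1 library of pooled mice, and for the same reason no replicate could be left out. The share of oligodendrocytes was 7.80%, 6.56% and 10.8% (estrus, diestrus and males) with stricter screens and 11.3%, 9.49% and 15.3% without cells above 2 times the median UMI count. With 1000 or more genes it was 13.8% in diestrus and 22.1% in males. The number of genes 2-fold apart followed the filter: at a mean of at least 5 CPM it was 275, 497 and 31 (estrus over diestrus, estrus over males, diestrus over males), and at 50 CPM 64, 95 and 4. Among cells without haemoglobin UMIs it was 187 for estrus over diestrus and 27 for diestrus over males, where it was also 17 with at most 10% mitochondrial UMIs and 17 with little neuron RNA. The share of cells with Klk6, Hopx and S100a10 was 0.318%, 0.246% and 0.560% at 1000 UMIs per cell and 2.09% in males at 3000. In estrus it was 0.526% with at most 10% mitochondrial UMIs, 0.402% with stricter screens and 0.483% without cells of many UMIs. The causes were not tested. The glucocorticoid list median lay at 1.88 to 2.21 against diestrus and 1.89 to 2.35 against males over every alternative run. With TMM factors 5, 6 and 4 of the 24 list medians changed sign, all of them under 0.15 in size. Of the 8 highest and 8 lowest ratios per pair none reversed, and 557 of 744 values for them stayed within counting error. The other named genes were not followed singly over the alternatives. Depth limits genes under a few CPM.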

Other observations

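Sex-linked genes went with the labels. Xist was at 378 CPM in estrus, against 547 in diestrus and 0.0905 in males. The Y-linked genes Eif2s3y, Kdm5d and Uty had 0 UMIs in both female libraries and stood at 91.8, 27.5 and 71.4 CPM in males. Ddx3y stood at 1.67, 4.93 and 127 CPM.

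Among mitochondrial transcripts mt-Nd3 took 504, 1157 and 802 and mt-Nd4l 187, 371 and 368 UMIs per 1000000 of all UMIs in estrus, diestrus and males, while mt-Co3 took 9754, 10345 and 9746.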
